A study of Mus musculus with 6 samples.

Results

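The data describe the genes of the RUNX transcription factor complex, Runx1, Runx2, Runx3 and Cbfb, in resting splenic CD8+ T cells (CD8-TC) that lack Runx3. Members were all probe sets that the array's platform annotation pairs with 1 of these 4 gene symbols. Such a probe set was found for 3 of the 4 genes, Runx1 (10441003), Runx3 (10509030) and Cbfb (10574632), each with 1 probe set, among 19938 genes named in this way. All 3 passed the filter on dim signals. Expression of Runx2 was not analysed here.

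RNA was measured on the Affymetrix Gene 1.0 ST mouse array, whose probes are spread along each transcript, and every level below is a normalized signal on the log2 scale. One group of 3 arrays was from Runx3-/- mice and the other 3 were from WT (Runx3 +/+) mice, each array from 1 mouse, and all 6 mice were males of the outbred ICR stock aged 6 weeks. The cells were freshly taken from spleen by positive selection on anti-CD8 beads, and Runx3-/- cells were sorted in addition to take out dendritic cells that carry CD8 and CD11c. The labels also speak of sorting for all samples, and if only Runx3-/- cells were sorted, this step and the genotype cannot be told apart. The sources used here give neither the part of Runx3 that the targeted allele lacks nor the part of the transcript that its probe set reads.

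RUNX proteins bind DNA through the conserved Runt domain, and each of the 3 family members pairs with the same non-DNA-binding subunit, CBFβ, the product of Cbfb, which raises their affinity for DNA. The complex can activate or repress transcription depending on its partners. In T cells, Runx1 acts from the earliest thymic stages on and remains in CD4 cells, Runx3 marks the CD8 lineage, where it silences Cd4, and Runx2 is best known as the master regulator of bone formation. Most RUNX genes are read from a pair of promoters, a distal and a proximal one.

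The start regions of the 3 RUNX genes carried a shared tandem of the RUNX motif, shown here because it sets the RUNX genes apart from Cbfb and from nearly all other genes. RefSeq windows of 300 bases (250 before and 50 after an annotated start, GRCm38.p6) matched all 4 members, with 2 windows each for Runx1 and Runx3 and 1 each for Runx2 and Cbfb. The windows are shown in part, 5′ to 3′ on the gene's strand, with the motif ACCACA, the reverse complement of TGTGGT, in capitals.
Runx1: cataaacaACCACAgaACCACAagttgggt
Runx2: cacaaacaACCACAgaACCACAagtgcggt
Runx3: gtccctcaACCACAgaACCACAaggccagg

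These stretches lie on the minus strand at chr16:92826025-92826054 (Runx1), on the minus strand at chr17:44814583-44814612 (Runx2) and on the plus strand at chr4:135120503-135120532 (Runx3). In Runx1 and Runx2 the tandem spans bases 29 to 42 and 24 to 37 after the start, and in Runx3 it lies before the start, from base -134 to base -121. The tandem, searched on both strands as a pair of ACCACA with any 2 bases between them, was present in 7 of 32851 windows of all genes (0.0213%). Of these 7, 3 belonged to Runx1, Runx2 and Runx3, and the other 4 belonged to Gm12236, Gm15462, Gm16225 and Olfr24. This arrangement was chosen after the sequences had been seen.

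The 4 letter variants of the RUNX motif were also counted singly, on both strands. TGTGGT occurred 2 times in the upstream Runx1 window, 3 times in the Runx2 window and 2 times in the upstream Runx3 window, including the tandem copies, and 16.8% of all windows held at least 1. TGCGGT (6.45% of windows) occurred once, in Runx2. TGTGGC (18.9%) occurred once each in Runx2 and upstream Runx3, and TGCGGC (12.4%) once, in Cbfb. The downstream windows of Runx1 and Runx3 held 0 matches to any of the 4 variants, whereas 45.2% of all windows held at least 1. A match is a string of letters and does not show that a factor sits there.

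Runx1 was 2.72-fold higher in Runx3-/- than in WT CD8-TC. Its signal was 6.76, 7.26 and 6.69 in Runx3-/- replicates 1, 2 and 3, against 5.47, 5.55 and 5.35 in WT replicates 1, 2 and 3. The groups did not overlap, and the lowest Runx3-/- array lay above the highest WT array. Runx3-/- replicate 2 stood above the other 2 mice of its genotype, whereas the WT mice lay close together, so that the SD was 0.31 in Runx3-/- and 0.10 in WT cells (n = 3 each). The difference was 1.44 ± 0.15 on the log2 scale (SE), with a 95% interval of 1.09 to 1.79, or 2.13-fold to 3.47-fold (limma adjusted p = 0.000836). The two-sided exact permutation test gave p = 0.1, the smallest that 3 against 3 arrays allow. In the same fit 11.6% of 9925 tested genes differed, 5.63% higher and 6.01% lower in Runx3-/- cells, and groups did not overlap for 33.6% of them. Non-overlap with higher Runx3-/- values was seen for 17.4% of genes and with lower ones for 16.2%. A difference at least as large as that of Runx1 was reached by 148 genes in either direction (1.49%) and by 32 upward (0.322%), and 3.12% of genes were, like Runx1, at least 1.5-fold higher with an unadjusted p under 0.05. The Runx1 call did not depend on any single mouse, with differences of 1.27 to 1.55 when each array was left out in turn, but was lost without the moderation of variances across genes (adjusted p = 0.0608).

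Runx3, the targeted gene, did not read lower in Runx3-/- cells. It read 7.06, 7.17 and 7.64 in Runx3-/- replicates 1, 2 and 3, against 7.09, 7.30 and 6.99 in WT replicates 1, 2 and 3. The groups overlapped, and the highest value of all 6 arrays came from Runx3-/- replicate 3. The SD was 0.31 in Runx3-/- and 0.16 in WT cells (n = 3 each), and 6.51% of genes had an SD among Runx3-/- arrays at least as large. The difference was 0.16 ± 0.16 on the log2 scale (SE), with a 95% interval from 0.87-fold to 1.44-fold (limma adjusted p = 0.559). Its sign turned without Runx3-/- replicate 3, to -0.012. Since the position of the probe set against the deleted part is not known here, this signal does not check the genotype labels.

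Cbfb, the shared partner subunit, read much the same in both genotypes. Its signal was 7.88, 7.85 and 7.70 in Runx3-/- replicates 1, 2 and 3 and 7.83, 7.73 and 7.84 in WT replicates 1, 2 and 3. The groups overlapped almost completely. The difference was 0.012 ± 0.093 on the log2 scale (SE, limma adjusted p = 0.954), and its 95% interval ran from 0.87-fold to 1.17-fold. A difference no larger than that of Cbfb was seen for 4.44% of genes.

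**Figure D1:**
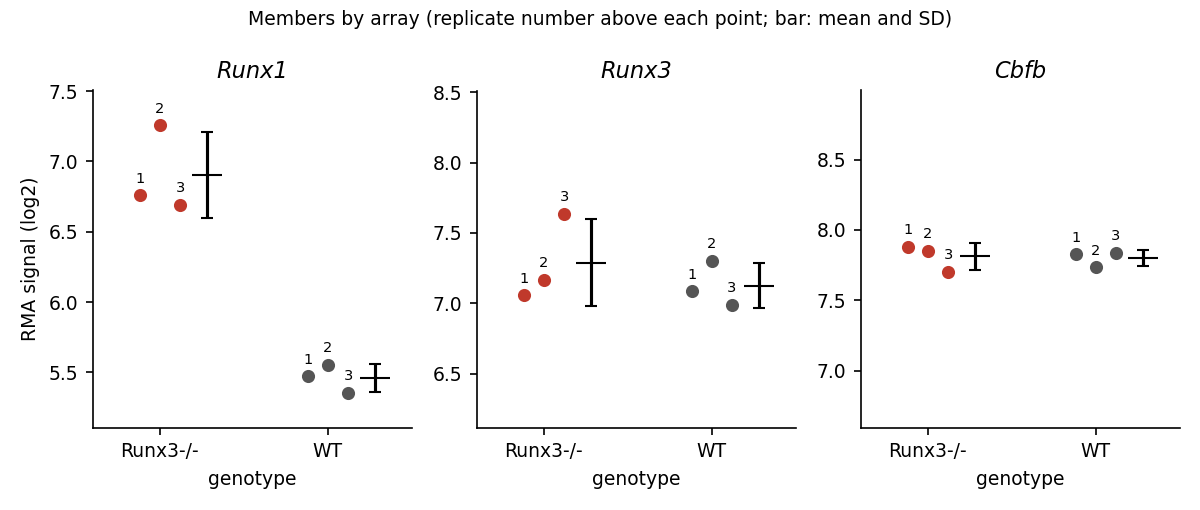
Normalized log2 signal (vertical axis, the same span of log2 units in each panel) of Runx1, Runx3 and Cbfb in each Runx3-/- (red, left) and WT (grey, right) array, with the replicate number above each point and the mean and SD of n = 3 mice beside them. The 3 Runx3-/- arrays lie between 6.69 and 7.26 for Runx1, above all WT arrays (5.35 to 5.55), whereas the genotypes overlap for Runx3 and Cbfb.

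Whether Runx1 changed by another amount than Runx3 and Cbfb was asked within each array, from the difference of 2 log2 signals. Only the shift of this difference between genotypes is read, since the signals of different probe sets are not on a common scale. Runx1 minus Runx3 ran from -0.94 to 0.09 in Runx3-/- arrays and from -1.75 to -1.62 in WT arrays, a shift of 1.28. Runx1 minus Cbfb ran from -1.12 to -0.60 in Runx3-/- arrays and from -2.49 to -2.18 in WT arrays, a shift of 1.43. The groups did not overlap in either relation. The two-sided exact permutation test gave p = 0.1 for each of the 2 relations, also after Benjamini-Hochberg adjustment, again the smallest p possible.

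**Figure D2:**
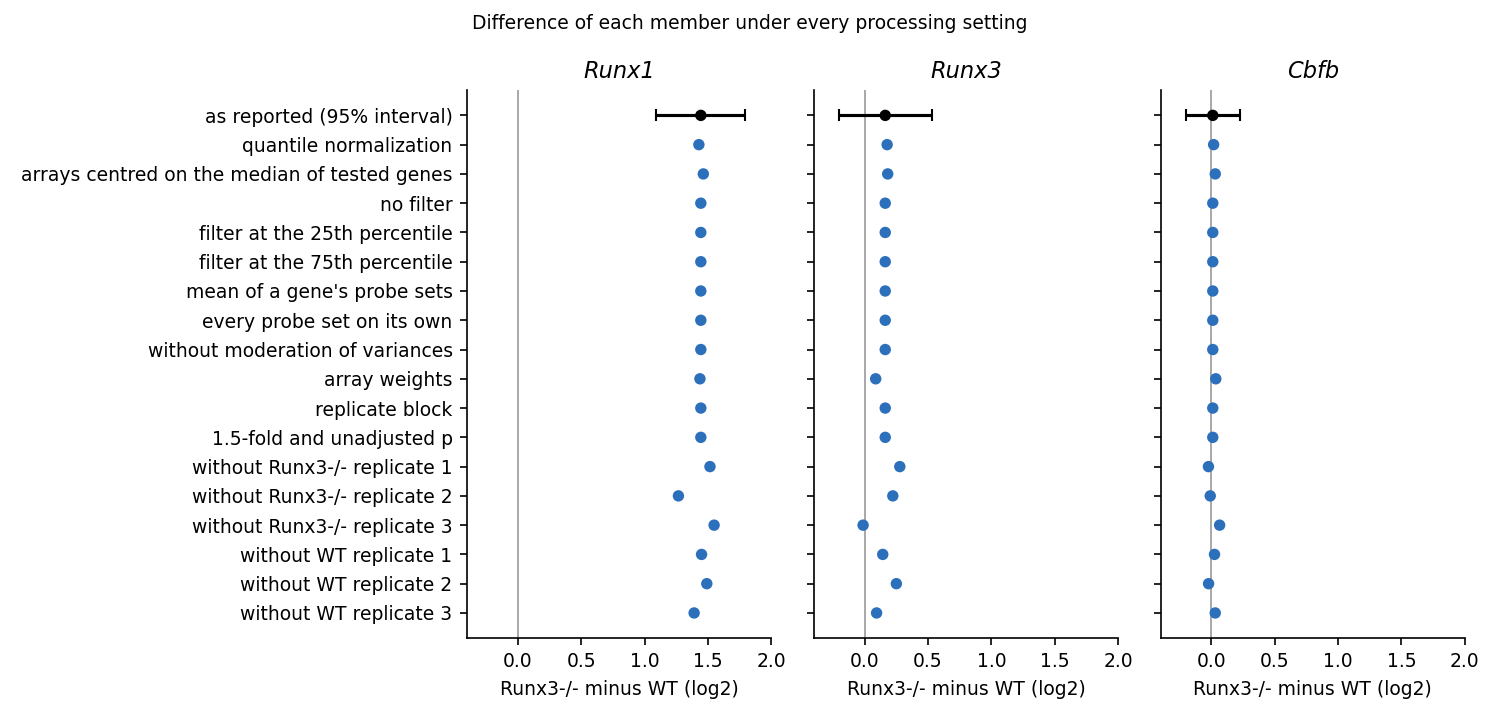
Difference between Runx3-/- and WT cells on the log2 scale (horizontal axis) of Runx1, Runx3 and Cbfb as reported (black, with the 95% interval) and under each of 17 other settings (blue, vertical axis). Runx1 stays between 1.27 and 1.55, Runx3 between -0.012 and 0.28 and Cbfb between -0.022 and 0.066. Settings of the filter, probe sets, moderation, replicate block and threshold cannot move these differences, since each member has 1 probe set.

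Marker genes of other cell types also differed between the genotypes. Of all tested genes, 5.63% were higher and 6.01% lower in Runx3-/- cells. The marker lists were chosen with earlier results of these data known, and their counts are descriptions only. CD8-TC markers were present in both groups, with Cd8a at 11.06 in Runx3-/- and 11.10 in WT cells and Cd3e at 9.39 and 9.44 in the same order. Of 11 tested T cell genes 3 were higher, Cd247, Lat and Zap70 (by 0.61, 0.55 and 0.44 on the log2 scale), and 0 lower. The median difference of this list was 0.19, beside 0.006 over all tested genes. Of 9 tested helper and regulatory T cell genes, 7 rose and 0 fell, and their summed linear signal was 502 to 587 in Runx3-/- arrays and 154 to 158 in WT arrays. All 9 tested B cell markers and all 12 macrophage markers fell, with sums of 186 to 252 and 260 to 409 in Runx3-/- arrays, against 1061 to 1643 and 2173 to 2199 in WT arrays. Of 6 erythroid markers 5 fell (222 to 244 in Runx3-/- and 447 to 664 in WT arrays), and of 6 natural killer cell genes 3 fell (604 to 1001 and 1932 to 2073). The natural killer cell genes that fell were Fcer1g, Klrd1 and Nkg7, and Nkg7, the brightest (10.48 in WT cells), made up most of the sum. Klre1 of this list gave 0.094 on the log2 scale (limma adjusted p = 0.565), and Ncr1, Klrb1c, Klra8 and Itga2 stayed below the filter. The sum is therefore not read as an amount of natural killer cells, and which cells carried the signal of Nkg7 and Klrd1 was not tested. Of 4 neutrophil markers 2 fell (32.8 to 42.1 in Runx3-/- and 47.0 to 90.3 in WT arrays). Of 2 tested platelet genes Itgb3 rose and Ppbp fell (summed signal 64.9 to 112 in Runx3-/- and 38.2 to 51.3 in WT arrays). In Runx3-/- arrays this sum mostly reads Itgb3 (means of 6.23 for Itgb3 and 2.97 for Ppbp, against 4.38 and 4.62 in WT cells). Pf4, Itga2b, Gp9, Gp5 and Treml1 of this list stayed below the filter. Some of these genes passed the filter only through the genotype where they read higher, namely 4 of the 9 helper and regulatory T cell genes through Runx3-/- arrays, and 2 of the 9 B cell, 3 of the 6 erythroid and all 4 neutrophil genes and Ppbp through WT arrays. In such bulk samples, fewer cells of a type and less RNA per cell cannot be told apart. The part of these shifts in the Runx1 difference, or in any difference given below, was not tested.

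Marker sums also varied among the Runx3-/- arrays. Runx3-/- replicate 2, at 7.26 for Runx1, had the lowest sum of the helper and regulatory list among Runx3-/- arrays (502). It also had the highest sum of the dendritic cell list (4396, against 2442 and 2461 in Runx3-/- replicates 1 and 3). That sum mostly reads Cd74, H2-Aa and H2-Ab1 (means of 10.09, 9.99 and 9.14 in Runx3-/- cells), since the next brightest gene, Xcr1, read 6.62. The dendritic cell sums of WT arrays were 4046 to 7285. Of 11 dendritic cell genes 1 passed, Ciita, lower in Runx3-/- cells (9.09%, near the 6.01% of all tested genes). Without Runx3-/- replicate 2 the Runx1 difference was 1.27, or 2.41-fold. With 1 array at this level, nothing is read from these sums about the Runx1 signal.

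**Figure D3:**
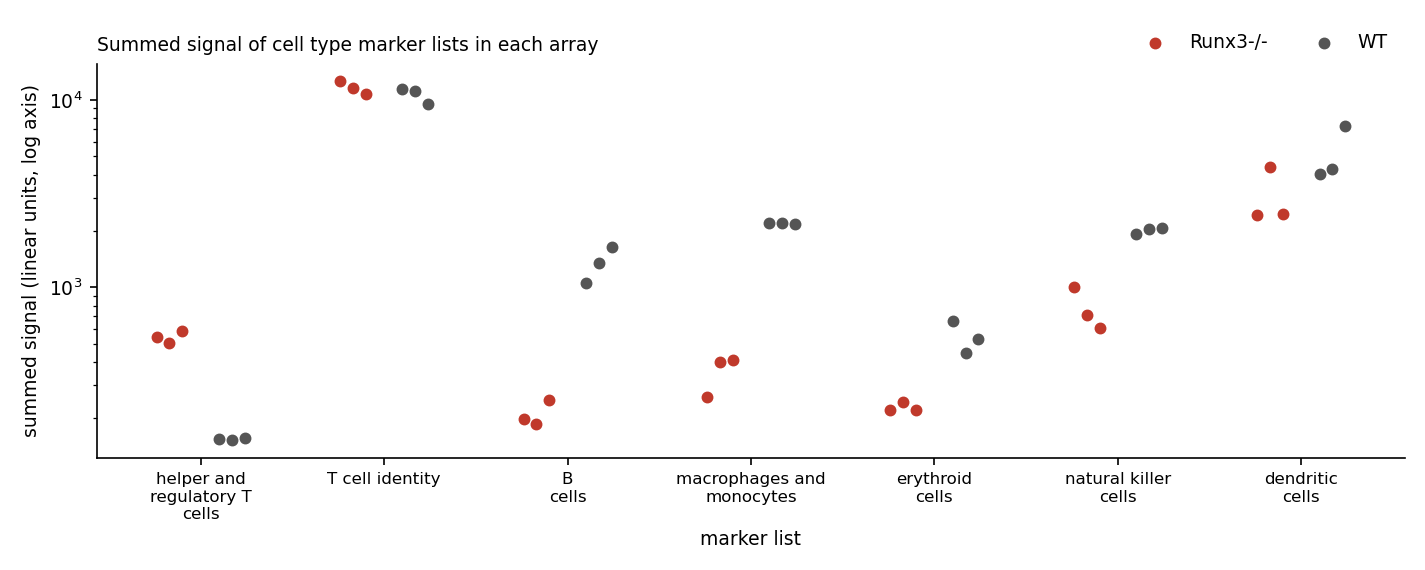
Summed linear signal (vertical log axis) of the tested genes of 7 marker lists (horizontal axis) in each Runx3-/- (red, left) and WT (grey, right) array. Helper and regulatory T cell genes sum to 502 to 587 in Runx3-/- arrays and 154 to 158 in WT arrays, whereas B cell, macrophage, erythroid and natural killer cell sums are lower in every Runx3-/- array than in every WT array. The natural killer cell sum mostly reads Nkg7.

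The pathway lists below, like the marker lists, were chosen with earlier results of these data known, and their counts and shares are descriptions only. Few of the cofactors that RUNX proteins recruit passed. Of 24 listed genes 19 were tested, of which 1 rose and 1 fell (5.26% each, near the shares of all genes) while 17 missed the threshold. Hdac1, a histone deacetylase found in corepressor complexes, rose by 0.49 ± 0.09 on the log2 scale (SE, limma adjusted p = 0.0136), with means of 9.55 ± 0.07 in Runx3-/- and 9.06 ± 0.08 in WT cells (SD, n = 3 each). A second probe set of Hdac1 gave 0.48. Cbfa2t3, a corepressor of the ETO family whose relative is fused to RUNX1 in leukemia, fell by 0.59 ± 0.16 (adjusted p = 0.0497), but missed the threshold in 12 of 16 alternatives, and its dimmer probe set gave -0.036. The median difference of the list was 0.005, beside 0.006 over all tested genes.

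Of 15 enzymes, cyclins and other proteins that modify or bind RUNX proteins, 12 were tested, of which 1 rose (8.33%, near the 5.63% of all tested genes), 3 fell (25%, against 6.01%) and 8 missed the threshold (median 0.12). Nedd4, a ubiquitin ligase, read 6.02, 6.31 and 5.19 in Runx3-/- replicates 1, 2 and 3, against 7.67, 7.65 and 7.73 in WT replicates 1, 2 and 3. All Runx3-/- arrays lay below all WT arrays, and Runx3-/- replicate 3 was the lowest. The difference was -1.84 ± 0.25 on the log2 scale (SE, limma adjusted p = 0.00281). Hipk2, a nuclear kinase, fell by 0.59 ± 0.08 and the cyclin D1 gene Ccnd1 fell by 1.06 ± 0.21, whereas the kinase gene Pim1 rose by 0.56 ± 0.11 (adjusted p of 0.00366, 0.0172 and 0.0145). The Ccnd1 call was lost without WT replicate 1 (adjusted p = 0.0649).

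Transcription factors that share sites or complexes with RUNX proteins passed in both directions. Of 23 listed genes 17 were tested, of which 6 rose (35.3%, against 5.63% of all tested genes), 2 fell (11.8%, against 6.01%) and 9 missed the threshold (median 0.30). The split was 2 higher and 2 lower without Runx3-/- replicate 2 and 3 higher and 2 lower without any other single array. Of the 6 that rose, Foxp3 and Gata1 passed the filter on dim signals only through Runx3-/- arrays, with 0 of 3 WT arrays at or above the array median, so that they entered the test through the group in which they read higher. Without the filter 22 genes were tested, of which 5 rose and 2 fell, and the adjusted p was 0.000427 for Foxp3 and 0.0410 for Gata1. The largest rise in the list was that of Foxp3, the regulatory T cell factor, at 5.16 ± 0.24 in Runx3-/- and 3.31 ± 0.07 in WT cells (SD, n = 3 each). The groups did not overlap, with a difference of 1.85 ± 0.13 (SE, limma adjusted p = 0.000104), in the arrays in which 7 of 9 helper and regulatory T cell genes, Foxp3 among them, rose. Smad3, which carries the TGF-beta signal, rose by 0.72 ± 0.14 (adjusted p = 0.0159), although not without Runx3-/- replicate 2 (adjusted p = 0.0599). Lmo2 and Spi1, which serve blood progenitors and myeloid and B cells, gave differences of -1.41 ± 0.15 and -1.76 ± 0.28 (adjusted p of 0.000888 and 0.00621), in the arrays in which all 12 macrophage and all 9 B cell markers fell. The part of the marker shifts in the differences of Foxp3, Lmo2 and Spi1 was not tested. The other rises were those of Gata1, Gata3, Myb and Bcl11b, with adjusted p of 0.0218, 0.0318, 0.0362 and 0.0368 in that order.

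Genes that RUNX proteins are known to control, in T cells or in other blood cells, were read as a last list. Of 21 listed genes 15 were tested, of which 2 rose (13.3%, against 5.63% of all tested genes), 3 fell (20%, against 6.01%) and 10 missed the threshold (median 0.023). Foxp3, Ifng and Gzmb among the 15 passed the filter only through Runx3-/- arrays. Cd4, the coreceptor of helper T cells that Runx3 silences in the CD8 lineage, read 6.80, 6.91 and 6.67 in Runx3-/- replicates 1, 2 and 3, against 4.14, 4.13 and 4.42 in WT replicates 1, 2 and 3. The groups did not overlap, and Cd4 rose by 2.57 ± 0.12 on the log2 scale (SE, limma adjusted p = 2.36e-05). The other gene that rose was Foxp3, and both stand in the helper and regulatory T cell list as well. Itgae, the gene of the integrin chain CD103, gave -2.61 ± 0.17 and Csf1r, a growth factor receptor of macrophages, gave -2.84 ± 0.24 (adjusted p of 9.9e-05 and 0.000254). The third gene that fell was Spi1, and Csf1r also stands in the macrophage list, of which all 12 genes fell. Foxp3 and Spi1, like Eomes and Tbx21, were also counted among the DNA-binding partners, so that the counts of these lists are not separate.

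**Figure D4:**
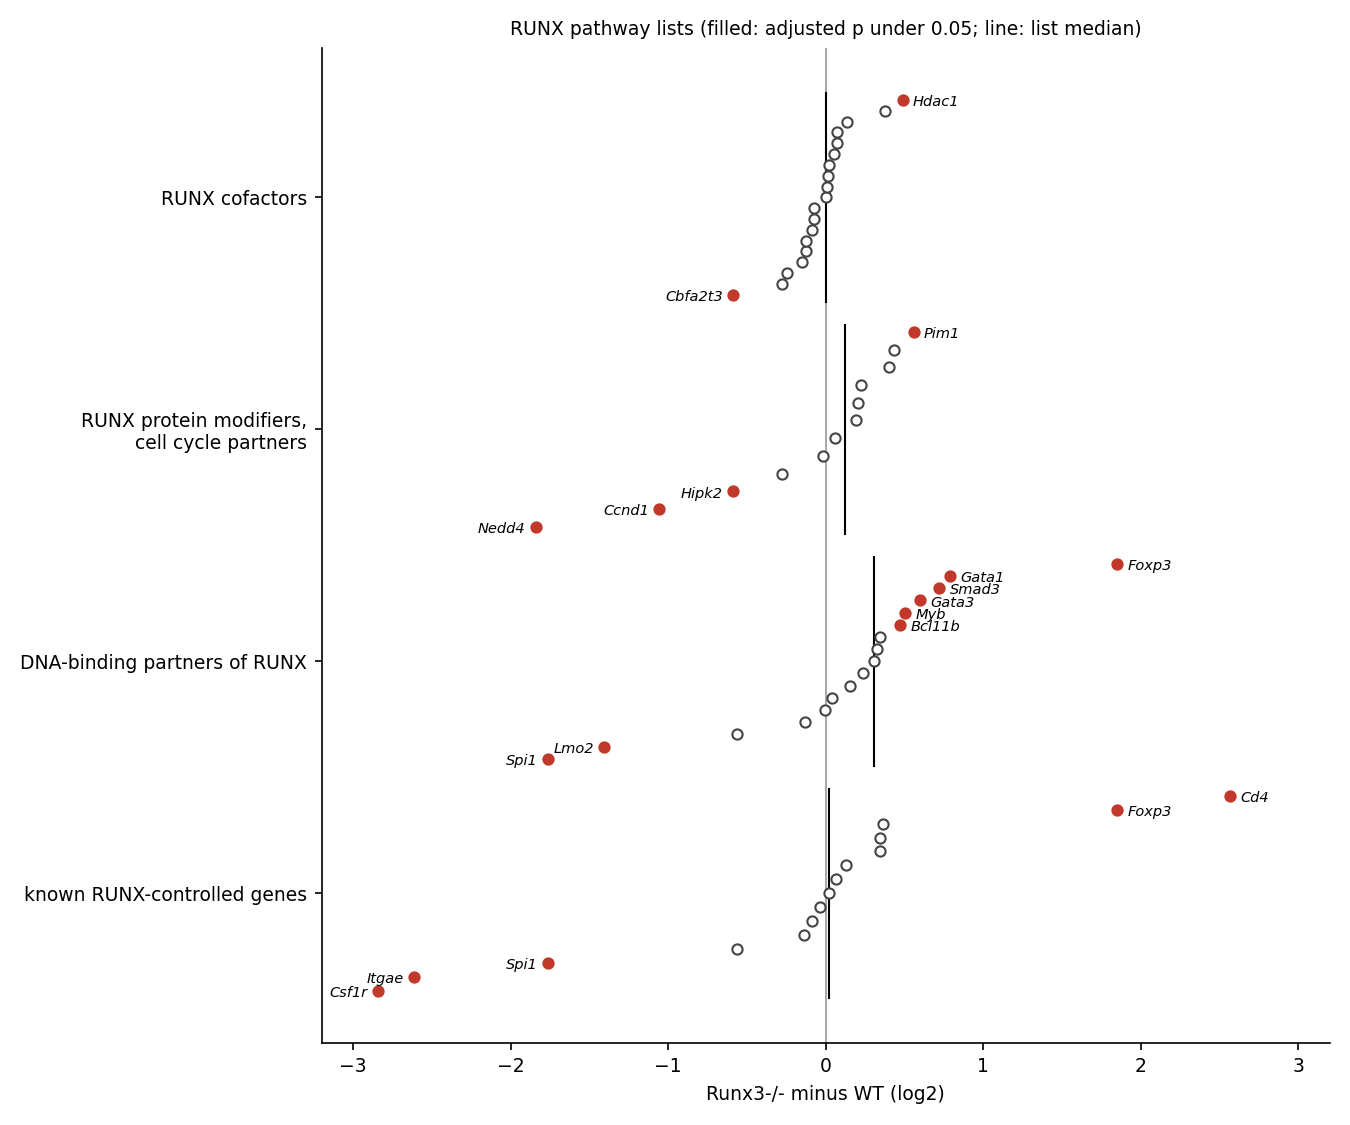
Difference between Runx3-/- and WT cells on the log2 scale (horizontal axis) of each tested gene in 4 RUNX pathway lists (vertical axis), with genes past the threshold filled and named and the list median as a line. Medians lie between 0.005 and 0.30, Cd4 (2.57) and Foxp3 (1.85) lie farthest to the right, and Csf1r (-2.84) and Itgae (-2.61) farthest to the left.

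The genes beside the members were read in the order of the RefSeq gene table, 5 tested genes on each side. Beside Runx1, 1 of 10 passed, near the 11.6% of all tested genes, and this gene, Setd4, a methyltransferase gene, rose by 0.56 ± 0.14 (SE, limma adjusted p = 0.0393), which missed the threshold in 9 of 16 alternatives. The nearest gene on the other side, Rcan1, an inhibitor of calcineurin, gave -0.26 ± 0.09 (adjusted p = 0.0903). The 10 neighbours lay between -0.26 and 0.56, all below the difference of Runx1 itself, which only 0.322% of all tested genes reached.

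Beside Runx3, 3 of 10 neighbours passed, where 11.6% of all tested genes did. Clic4, a chloride channel gene and the nearest tested gene at higher coordinates, read 5.94, 6.63 and 5.66 in Runx3-/- replicates 1, 2 and 3, against 7.54, 7.33 and 7.83 in WT replicates 1, 2 and 3. The groups did not overlap, and the difference was -1.49 ± 0.24 (SE, limma adjusted p = 0.00612), which of 17 alternatives missed the threshold only without the moderation of variances (adjusted p = 0.116). Rhd, a blood group gene of red cells, gave -0.84 ± 0.17 (adjusted p = 0.0183), in the arrays in which 5 of 6 erythroid markers fell, a link that was not tested. Rhd passed the filter only through WT arrays, and missed the threshold without Runx3-/- replicate 2 (adjusted p = 0.0697). Rsrp1 gave 0.67 ± 0.18 (adjusted p = 0.0498) and missed the threshold in 9 of 17 alternatives. Syf2, a splicing factor gene and the nearest tested gene at lower coordinates, gave -0.057 ± 0.12 (adjusted p = 0.793), and its sign turned without WT replicate 1 (0.048).

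Beside Cbfb, 0 of 10 neighbours passed in limma (11.6% of all tested genes did). The lowest limma adjusted p there were 0.104 for Elmo3, past the filter only through Runx3-/- arrays, and 0.146 for Dync1li2. The nearest genes to Cbfb, Ciao2b and D230025D16Rik, gave 0.21 ± 0.11 and 0.058 ± 0.12 (SE). Beside Runx2, 2 of 10 fell, where 6.01% of all tested genes did, Pla2g7, a lipase of macrophages, by 1.87 ± 0.13 (adjusted p = 0.000103) and Cyp39a1, an oxysterol hydroxylase gene, by 0.63 ± 0.09 (adjusted p = 0.00289). The nearest genes there, Enpp4 and Supt3, gave -0.079 ± 0.097 and 0.081 ± 0.11 (adjusted p of 0.646 and 0.683).

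**Figure D5:**
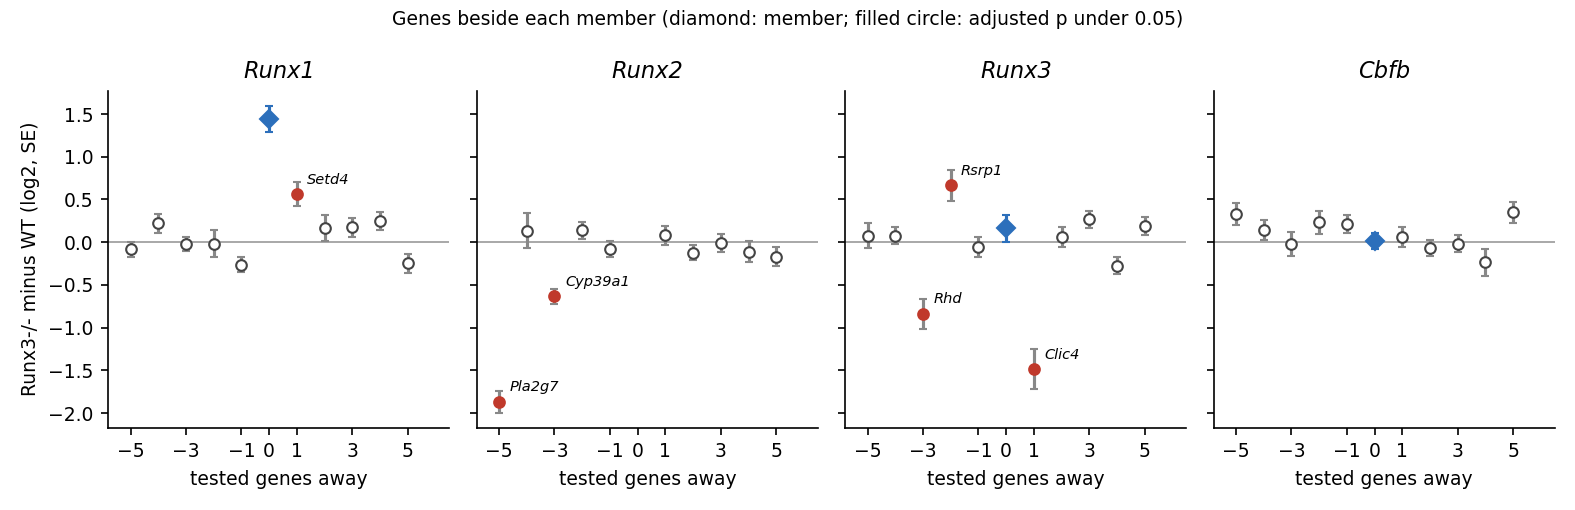
Difference between Runx3-/- and WT cells on the log2 scale with its SE (vertical axis) of the 5 nearest tested genes on each side of each member, in gene order (horizontal axis, negative at lower coordinates), with the member as a diamond (none for Runx2, whose expression was not analysed) and genes past the threshold filled. Runx1 (1.44) lies above all its neighbours, at a difference that only 0.322% of all tested genes reached, and Clic4 (-1.49) is the lowest of the genes beside Runx3.

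The tested genes whose profile over the 6 arrays came nearest to that of Runx1, after each gene was centred on its mean, were Mapk11, Chic1 and Kif1b, at root-mean-square distances of 0.10, 0.14 and 0.15 on the log2 scale. Mapk11, a p38 kinase gene, read 5.32, 5.88 and 5.18 in Runx3-/- replicates 1, 2 and 3, and 3.96, 4.01 and 4.11 in WT replicates 1, 2 and 3, so that replicate 2 was the highest Runx3-/- array for it as for Runx1. Its difference was 1.43 ± 0.17, and those of Chic1 and of the kinesin gene Kif1b were 1.28 ± 0.12 and 1.27 ± 0.13 (SE, limma adjusted p of 0.00173, 0.000501 and 0.000653). A second, dimmer probe set of Chic1 gave 1.70. These genes were picked by their likeness to Runx1 in these same arrays. Their like differences, low p and shared highest array follow from that choice and are not separate evidence. For Runx3 the nearest were Mir199a-1, Focad and Mir383 (0.042, 0.050 and 0.060), and for Cbfb they were Bad, Selenok-ps1 and Napa (0.021, 0.025 and 0.026). Mir199a-1 averaged 3.22 in Runx3-/- and 3.01 in WT cells, below the array medians. Since neither Runx3 nor Cbfb differed past the threshold, nothing is read from the profiles nearest to them.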

How the data were processed

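The deposited values are log2 signals per probe set. According to the methods, the authors made them in Partek Genomics Suite by RMA, which corrects background, equalizes arrays and summarizes probes, with a GC correction. No source used here names a version or genome build. Values were not renormalized. A gene was tested when its brightest probe set named for 1 gene reached an array's overall median on 1 or more arrays, which left 9925 genes. Runx3-/- was compared with WT, two-sided, with limma 3.58.1 in R 4.3.3 (lmFit and eBayes, no covariates), with Benjamini-Hochberg adjustment over all genes tested and a threshold of 0.05. The step was tested on simulated data. Array medians were 3.45 to 3.53, the correlation across genes was 0.985 or more within a genotype and 0.971 or less between genotypes, and arrays had at most 14 values in common. The number of arrays limits the precision. No detection call was used, so that a fold against a dim signal may be understated.

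Motifs were searched with Python 3.11.15 in RefSeq windows. Gene order came from a RefSeq gene table (GRCm38.p6). Named were the members, up to 4 genes with the lowest p among those that passed in each pathway list, the nearest tested neighbour on each side, and the 3 nearest profiles. Other neighbours, the further DNA-binding partners and single marker genes were named after their values were seen. Members and lists were chosen with earlier results of these data known. A comparison of the member proteins was not made here.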

Additional observations from a re-analysis of the deposited data

How the results depend on the processing

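Runx1 kept its sign under all 17 alternatives and its side of the threshold under 16 of them, from 1.27 to 1.55. The filter, probe set, moderation, replicate block and fold settings cannot move the difference of a gene with 1 probe set, only its p or the threshold. Its sign was open to change only under quantile normalization, centring of arrays, array weights and the omission of an array. Runx1 did not pass without moderation of variances (difference 1.44, limma adjusted p = 0.0608), where the number of genes that differed was 182 in place of 1155. With any 1 array left out, that number ran from 625 (without Runx3-/- replicate 3 or WT replicate 1; 634 without Runx3-/- replicate 2) to 925, and the differences ran from 1.27 to 1.55 for Runx1, from -0.012 to 0.28 for Runx3, from -0.022 to 0.066 for Cbfb, from -0.13 to 0.048 for Syf2, from -0.024 to 0.16 for D230025D16Rik and from -0.021 to 0.16 for Supt3. Signs that turned did so in these settings alone. The shift of Runx1 against Runx3 ran from 1.04 to 1.56 and that against Cbfb from 1.27 to 1.54. Leaving out 1 array left 1 or 2 cofactors, 3 or 4 modifiers, 4 or 5 DNA-binding partners and 3 (without Runx3-/- replicate 2) to 5 neighbours that passed, in place of 2, 4, 8 and 6. The number of cofactors was 1 without a filter, with the filter at the 25th percentile, with mean or separate probe sets, with array weights, with the replicate block and at 1.5-fold with unadjusted p. Without moderation it was 0, and 1 modifier, 1 DNA-binding partner and 2 neighbours passed. With the filter at the 75th percentile 3 neighbours passed. The titles do not say whether arrays with the same replicate number belong together. Deviations of same-numbered arrays correlated at 0.18, 0.032 and -7.91e-05, where those of arrays with unequal numbers ran from -0.14 to 0.083. With the replicate block 1085 genes differed and Runx1 gave 1.44 (limma adjusted p = 0.00383). The cause of these moves was not tested. No depth can be given for arrays, and the signals of Rcan1 and Rhd, and those of Foxp3 and Gata1 in WT cells, lay near the array medians, so that their differences may be understated.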
